A study of Mus musculus with 11 samples.

Results

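Mir873 and Mir876 are neighbouring microRNA (miRNA) genes of the mouse, and their levels were followed while embryonic fibroblasts (MEF) were reprogrammed to induced pluripotent stem cells (iPSC). The pair was chosen for its steep fall from MEF to day 8, and makes up 2 of the 3859 small RNA genes in the deposited table. The levels of MEF and days 1 to 8 are therefore described without a test; the levels in the iPSC and embryonic stem cell (ESC) lines were not used in the choice. There were 11 libraries with 1 per stage: each of days 1 to 8 under doxycycline, a finished iPSC line, an ESC line and uninduced MEF. Every library is labelled Mbd3f/-, a genotype in which 1 allele of the NuRD component Mbd3 is deleted and the other floxed, so that MEF too carried the deletion. The column of the ESC library carries the name V6.5, which leaves its genotype unclear. The MEF were secondary cells with a doxycycline-inducible OKSM cassette (Oct4, Klf4, Sox2 and Myc), reprogrammed at low oxygen. Cells of days 3 to 8, iPSC and ESC grew on irradiated human foreskin fibroblasts, per the labels, and inhibitors of MEK and GSK3 were added during the course, on a day on which the labels' texts differ. Feeders, medium and the later days cannot be told apart.

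A miRNA gene is transcribed as a hairpin whose arms are cut to short mature miRNAs, and a mature miRNA guides silencing complexes to messenger RNAs that pair with its seed, bases 2 to 8. Hairpins that lie in an intron can be released from the transcript of the host gene. The host here is Lingo2, which codes for a membrane protein with leucine-rich repeats and an immunoglobulin domain and is best known from the nervous system.

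Both hairpins lie on the minus strand of chromosome 4 in GRCm38, the strand of Lingo2. Mir873 (ENSMUSG00000078057, Mir873a in newer annotation) is at chr4:36668510-36668586 and is 77 nt long. Mir876 (ENSMUSG00000077851) is at chr4:36645373-36645453 and is 81 nt long. The gap between them is 23.1 kb. In GENCODE vM21, Lingo2 covers 1245 kb and has 10 transcripts, of which 2 span the pair. In both, the 2 hairpins sit in the same intron, the second, of 281 kb, and touch no exon. On the plus strand the annotation places Mir873b on exactly the bases of Mir873, as its reverse complement. Mir873b has no row in the table, and whether the authors' counting used strand is not given in the sources used here, so reads of Mir873 and Mir873b cannot be told apart. Lingo2 itself is not among the small RNA genes and was not analysed here. Within 1 Mb of the pair the table has 1 other row, the snoRNA Gm22732, which was listed at 0 in every library.

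**Figure D1:**
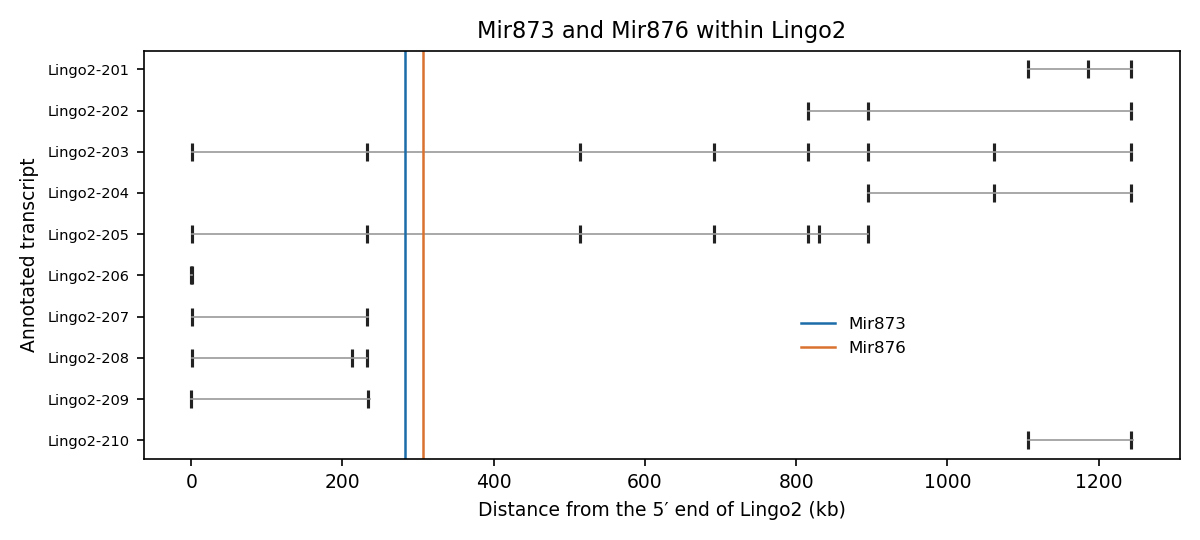
Annotated transcripts of Lingo2 drawn by distance from the 5′ end of the gene in kb (grey lines, with exons as black ticks), with Mir873 (blue) and Mir876 (orange). Mir873 at 283 kb and Mir876 at 306 kb lie side by side in 1 intron of the 2 transcripts that span them.

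The hairpins and mature arms from RefSeq (GRCm38.p6) are shown because the table has 1 value per hairpin and cannot say which arm was sequenced. In the hairpins, capitals mark the mature arms:
Mir873a hairpin: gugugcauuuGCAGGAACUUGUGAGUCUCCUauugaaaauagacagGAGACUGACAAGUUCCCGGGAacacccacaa
Mir876 hairpin: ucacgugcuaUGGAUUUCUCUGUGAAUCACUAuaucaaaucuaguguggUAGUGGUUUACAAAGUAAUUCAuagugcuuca

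In the mature miRNAs, capitals mark the seed, by which targets are recognised:
miR-873a-5p: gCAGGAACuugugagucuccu
miR-873a-3p: gAGACUGAcaaguucccggga
miR-876-5p: uGGAUUUCucugugaaucacua
miR-876-3p: uAGUGGUUuacaaaguaauuca
miR-6370: gCAGGAACagcaaaggggaag

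The 4 arms of the pair have 4 different seeds, so the neighbours do not share a seed with each other. Among the 1738 mature mouse miRNAs in the RefSeq set, 1 other, miR-6370, carries the seed of miR-873a-5p, and none carries that of miR-873a-3p, miR-876-5p or miR-876-3p. miR-6370, from chromosome 6, was listed at 0 in all 11 libraries. Its hairpin thus gave no value beside those of the pair.

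The table gives FPKM, a level scaled to the length of the gene and the mapped reads of the library, as computed by the authors. At low values FPKM moves in steps of 1 read, which allowed the reads behind each value to be recovered. The implied depth was 11600000 mapped reads in MEF and up to 21900000 on day 7. For Mir873, 1 read was worth 55.4 FPKM in MEF and 29.3 on day 7. As recovered, genes of the table with a short annotated length took between 44.8% and 59.2% of the mapped reads. Exceptions were 22.6% on day 7 and 27.6% on day 8. Longer genes and those without an annotated length are not in this share. Intervals given here are exact 95% intervals of these reads and cover counting error only, not the spread between cultures, which was not measured.

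Mir873 had 10936 FPKM in MEF before doxycycline. It stood at 5930.2, 3301, 889.8, 387, 51.3, 43.7, 29.4 and 0 FPKM on days 1 to 8. The iPSC library had 563 FPKM and the ESC library 217. The reads behind these values numbered 197 in MEF. Days 1 to 8 had 115, 70, 27, 11, 1, 1, 1 and 0, and the lines had 13 (iPSC) and 6 (ESC). The listed level was thus highest before induction and lower on each later day, with at most 1 read from day 5 on. It was higher in both pluripotent lines than on the last 4 days. Over day 6, with 1 read, the fold was 12.9 in iPSC (interval 1.94 to 548) and 4.96 in ESC (0.603 to 228, which holds 1).

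Mir876 had 3217 FPKM in MEF. It stood at 2275, 1305, 428, 426, 0, 37.8, 0 and 0 FPKM on days 1 to 8. The iPSC library had 262 FPKM and the ESC library 156. The reads of Mir876 numbered 67 in MEF. Days 1 to 8 had 51, 32, 15, 14, 0, 1, 0 and 0, and the lines had 7 (iPSC) and 5 (ESC). The order of stages was close to that of Mir873, with the same drop after day 4, but days 3 and 4 were level. Over day 6, with 1 read, the fold of Mir876 was 6.94 in iPSC (interval 0.891 to 313) and 4.14 in ESC (0.463 to 196). Both intervals hold 1.

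**Figure D2:**
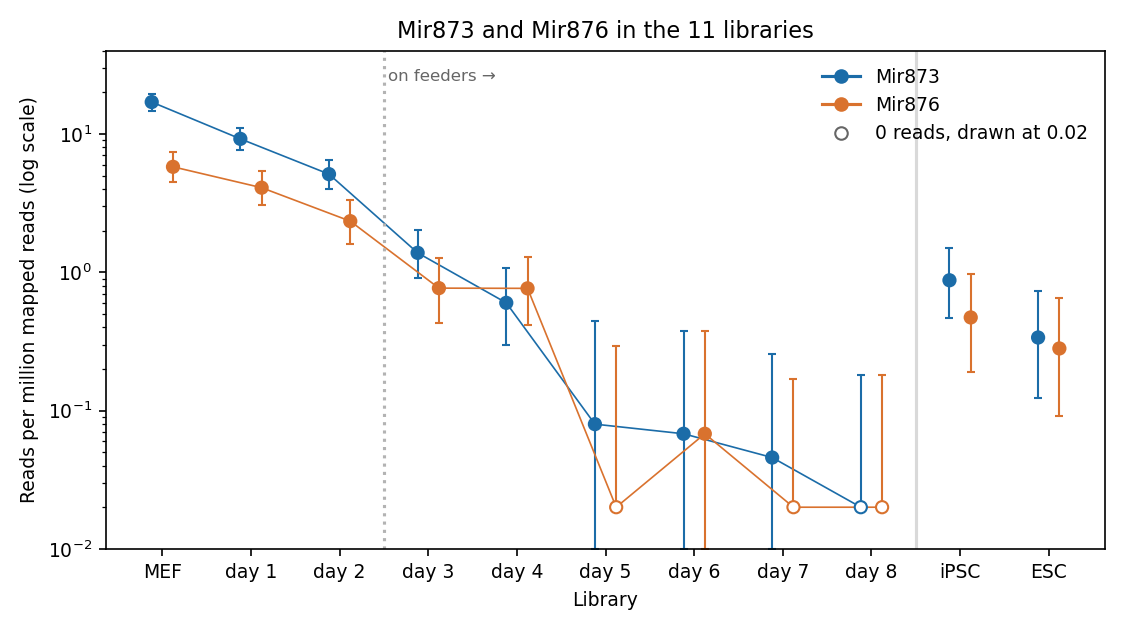
RPM, reads per 1000000 mapped reads (log axis), of Mir873 (blue) and Mir876 (orange) in each library, with exact 95% Poisson intervals; open points are libraries with 0 reads, drawn near the foot of the axis, and the dotted line marks the first stage on feeder cells. Mir873 is at 17.0 RPM in MEF and at 0.601 on day 4, and both genes have at most 1 read per library on days 5 to 8 but 5 to 13 reads in the 2 lines.

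Sorted by RPM, MEF, day 1, day 2 and day 3 held the first 4 places for Mir873, followed by iPSC, day 4, ESC and days 5 to 8. As a description of this order, the interval of the fold between one place and the next left out 1 for each step down to day 3, and held 1 for each step below it. For Mir876 the order was MEF, days 1 to 4, iPSC, ESC, day 6 and the days listed at 0. There the interval left out 1 between day 1 and day 2 and between day 2 and day 3, and held 1 at the other steps that have a value.

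The fall was under way before the cells were placed on feeders. On day 1 Mir873 was at 54.2% of its MEF level and Mir876 at 70.7%. On day 2 the fold over MEF was 0.302 for Mir873 (interval 0.226 to 0.397) and 0.406 for Mir876 (0.257 to 0.625). On day 3, the first stage on feeders, Mir873 stood at 8.14% of MEF and Mir876 at 13.3%. Both were below day 2, with folds of 0.27 (0.166 to 0.426) for Mir873 and 0.328 (0.165 to 0.623) for Mir876.

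Between days 3 and 5 the listed steps of the neighbours differed in size, but their intervals overlapped. The fold of day 4 over day 3 was 0.435 (0.195 to 0.906) for Mir873 and 0.997 (0.446 to 2.21) for Mir876, an interval that also holds the fold of Mir873. On day 5 Mir873 had 1 read, against 11 on day 4 (fold 0.133, interval 0.00308 to 0.913). Mir876 had 0 reads on day 5, against 14 on day 4. With 3 reads taken as the floor for a library at 0, it was 3.21-fold lower. The exact interval reached down to 2.27-fold.

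By day 8 both genes were listed at 0. A listed 0 is not always an absence of reads in this table: Mir182 had 37508500 FPKM on day 5 and 0 on day 6 to day 8, and Mir143 had 40549900 on day 1 and 0 in MEF. Such zeros also occur in the lines, where Mir295 was listed at 0 in both, against 31201600 on day 8. Whether the listed zeros of the pair are of this kind was not tested. Taking the 0 as 0 reads, and with a floor of 3 reads in that library, Mir873 was at least 117-fold lower and Mir876 at least 39.7-fold lower on day 8 than in MEF. The last 4 days together held 3 reads of Mir873 and 1 of Mir876 over all 4 libraries, which is 0.0574 RPM for the pair (interval 0.0156 to 0.147), against 22.8 (20.1 to 25.7) in MEF. The share of mapped reads in genes of short annotated length was 47.0% on day 5 and 44.8% on day 6. It was 22.6% on day 7 and 27.6% on day 8, and the part of this share in the low values was not tested. Per 1000000 reads of these genes in place of mapped reads, Mir873 was at 0.17 on day 5, 0.152 on day 6 and 0.202 on day 7. On day 8 it was at 0, against 34.8 in MEF. In whole cultures like these, fewer cells that make an RNA and less of it per cell cannot be told apart.

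Over the course, 1419 transcripts with a mean of at least 10 FPKM were fitted with limma on log2(FPKM + 10), with MEF at day 0. At a threshold of 0.05 on limma's p after Benjamini-Hochberg adjustment, 150 transcripts fell, 10.6% of those tested, and 177 (12.5%) rose. The count of falling transcripts rested on the end of the course: it was 97 without day 7 and 98 without day 8. Rising ones numbered 93 without MEF, 110 without day 1 and 114 without day 6. The slope, which bears on the choice of the pair and is given as a description, was -1.30 ± 0.09 per day for Mir873 and -1.20 ± 0.16 for Mir876 (log2, SE over 9 libraries). They were the fifth and the sixth steepest, where the first, Mir182, is the gene with the listed zeros above. Just steeper was Mir223, a myeloid miRNA, at -1.49, and just less steep was Mir133a-1, a muscle miRNA, at -1.16. On days 3 to 8 alone, all on feeders, the slopes were -1.22 ± 0.16 for Mir873 and -1.18 ± 0.35 for Mir876.

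Whether the pair was lost early depends on the scale. Of the transcripts tested, 241 (17.0%) were at least 4-fold lower on day 8 than in MEF on log2(FPKM + 10), the pair among them. That fold was passed on day 2 by 8.60% of transcripts and by neither of the pair, and on day 4 by 7.05% and by both. After quantile normalization both genes passed it on day 2, at -2.27 for Mir873 and -2.78 for Mir876 in place of -1.73 and -1.30 (log2). On day 4, Mir873 was at 3.54% and Mir876 at 13.2% of MEF, while the other 239 had a median of 44.3%. As a share of each gene's own log2 fall to day 8, however, 17.1% was complete on day 2 for Mir873 and 15.5% for Mir876, with a median of 26.0% and quartiles of -4.76% and 59.7% in the others. On day 4 it was 47.4% and 34.6%, with a median of 31.7% in the others. On each of days 1 to 4 the share completed by Mir873 and Mir876 lay within the quartiles of the others. Both descriptions use the same stages as the choice of the pair.

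**Figure D3:**
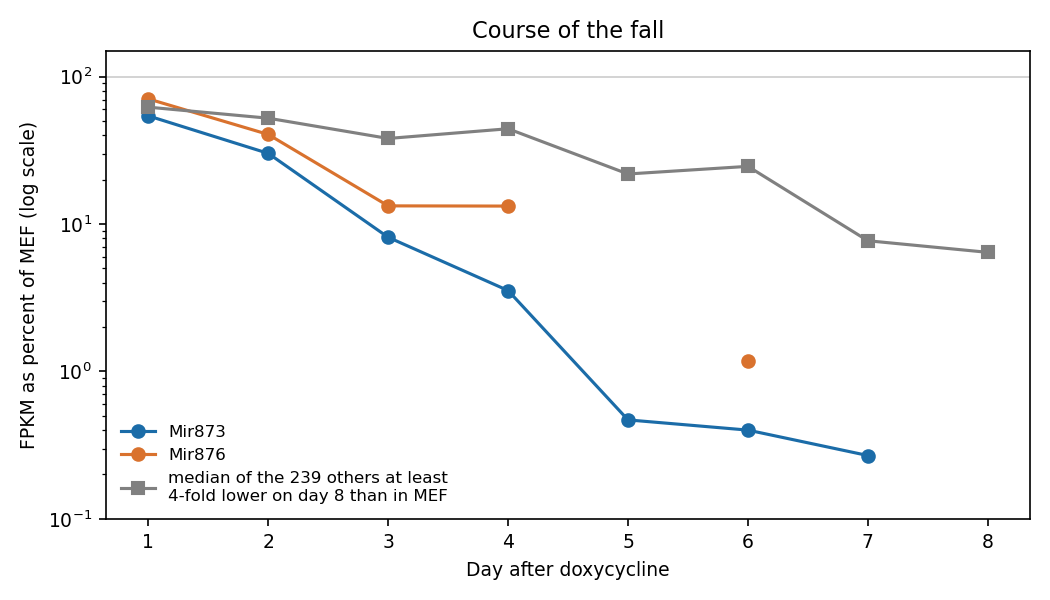
FPKM as percent of the MEF level (log axis) against day after doxycycline for Mir873 (blue), Mir876 (orange; days listed at 0 are left out) and the median of the 239 other transcripts at least 4-fold lower on day 8 than in MEF (grey squares). The pair is close to the others on day 1 and below their median from day 2 on.

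The pluripotent lines did not take part in the choice of the pair, although MEF and day 8, against which they are set here, did, so that the folds and intervals are descriptions. In iPSC Mir873 stood at 5.15% of its MEF level (fold 0.0515, interval 0.0269 to 0.09) and Mir876 at 8.16% (0.0816, 0.0315 to 0.177). In ESC Mir873 was at 1.98% of MEF (fold 0.0198, interval 0.00719 to 0.0439) and Mir876 at 4.86% (0.0486, 0.0153 to 0.119). Both genes were thus lower in either line than in MEF. At least 4-fold lower levels than in MEF on log2(FPKM + 10) were seen in 10.9% of all tested transcripts in iPSC and in 13.1% in ESC. The log2 difference between iPSC and MEF depended on the scaling: it was -4.25 for Mir873 and -3.57 for Mir876 as deposited, and -5.61 and -5.44 after quantile normalization.

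Against day 8, where the pair was at 0, both lines were higher. With a floor of 3 reads on day 8, Mir873 was 6.02-fold higher in iPSC and 2.32-fold higher in ESC. The exact intervals reached down to 4.22-fold in iPSC and 1.36-fold in ESC. Mir876 was 3.24-fold higher in iPSC and 1.93-fold higher in ESC on that floor, with intervals reaching down to 1.99-fold and 1.06-fold. Together the pair had 20 reads in iPSC, 1.35 RPM (interval 0.823 to 2.08), and 11 in ESC, 0.619 RPM (0.309 to 1.11), against 4 over days 5 to 8, 0.0574 RPM (0.0156 to 0.147). All 6 of these libraries came from cells on feeders, and the last 4 days were low by the choice of the pair. With 1 library per line and so few reads, a difference between the lines was not detectable: Mir873 was 2.6-fold higher in iPSC than in ESC, with an interval of 0.92 to 8.32, and Mir876 1.68-fold, with an interval of 0.458 to 6.7.

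A higher level in the lines than on day 8 was also seen in other transcripts. Of all those tested, 22.6% were at least 4-fold higher in iPSC than on day 8, 13.7% in ESC and 9.73% in both. Of the other 239 that were at least 4-fold lower on day 8 than in MEF, 100 (41.8%) were at least 4-fold higher in iPSC than on day 8, 63 (26.4%) in ESC and 48 (20.1%) in both. These were chosen for a low day 8, as was the pair. Both genes of the pair passed that fold in both lines with a pseudocount of 10. With a pseudocount of 100 only Mir873 in iPSC did, at 2.73 (log2), against 1.67 for Mir873 in ESC, 1.86 for Mir876 in iPSC and 1.36 for Mir876 in ESC. The genes next to the pair in steepness of fall were not alike in the lines. Mir511, hosted by the gene of a macrophage receptor for mannose, was listed at 0 in iPSC and ESC and had 234 reads in MEF. Mir223 was likewise listed at 0 in both lines and had 1269 reads in MEF. Mir206, a skeletal muscle miRNA, had 1 read in iPSC, was listed at 0 in ESC and had 487 reads in MEF. Mir133a-1, also of muscle and just less steep than the pair, had 4 reads in iPSC, 5 in ESC, 1 on day 8 and 770 in MEF. Mir483 and mmu-mir-6944, next in steepness, had 79 and 261 reads in iPSC and 17 and 75 in ESC. On day 8 they had 8 and 3 reads, and in MEF 1877 and 328. Mir133a-2 had 15 reads in iPSC, 7 in ESC, 6 on day 8 and 1522 in MEF. These genes are set beside the pair as values, and the difference was not tested.

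Within the pair, Mir873 was the more abundant gene in most libraries. Its share of the reads of the pair was 74.6% in MEF (197 of 264 reads, Clopper-Pearson interval 68.9% to 79.8%), 69.3% on day 1 (61.7% to 76.2%), 68.6% on day 2 (58.7% to 77.5%) and 64.3% on day 3 (48.0% to 78.4%). On day 4 it was 44.0% (11 of 25 reads, 24.4% to 65.1%). The share was lower on each day to day 4 than at the stage before, and the interval of day 4 is wide. In iPSC the share was 65.0% (13 of 20 reads, 40.8% to 84.6%) and in ESC 54.5% (6 of 11 reads, 23.4% to 83.3%), intervals wide enough to hold the share of MEF and that of each of days 1 to 4. Days 5 to 7 held 1, 2 and 1 reads of the pair and day 8 none, too few for a share.

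**Figure D4:**
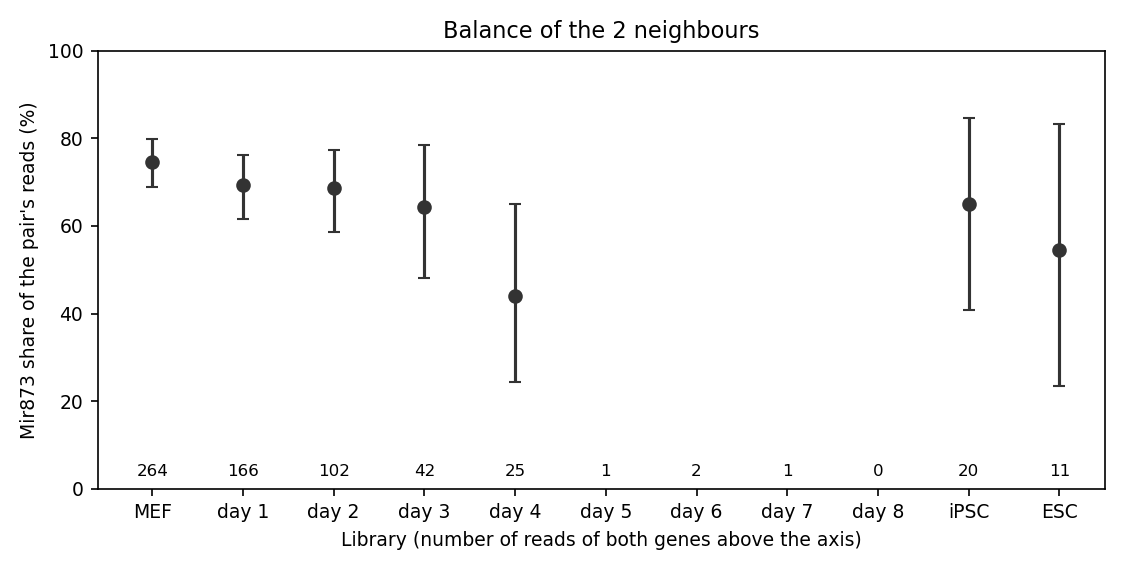
Mir873 as percent of the reads of Mir873 and Mir876 together in each library with at least 5 such reads, with exact 95% Clopper-Pearson intervals; the number of reads of the pair is printed above the axis. The share is 74.6% in MEF and 44.0% on day 4, with wide intervals in the libraries of few reads.

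The profiles of the neighbours were alike by correlation. Over the 11 libraries, Pearson's r of log2(FPKM + 10) between Mir873 and Mir876 was 0.96 and Spearman's rho 0.96, a description over stages that share libraries and depth. Without any 1 library r lay between 0.95 and 0.98, and with a pseudocount of 1 it was 0.90. Both genes are near 0 on days 5 to 8, and these days enter r. Other pairs of tested transcripts within 10 kb of each other, 2195 in number, had a median r of 0.75, and 87.4% of them had a lower r than Mir873 and Mir876. Within 50 kb, a window wide enough to hold the gap of the pair and set after seeing the data, it was 88.8% of 6285 pairs. The mean absolute difference of the profiles, each centred on its mean, was 0.69 (log2) for Mir873 and Mir876. Its median was close to that in the other pairs, at 0.73 within 10 kb and 0.76 within 50 kb. Many of the other pairs lie in the same miRNA clusters and are not independent. Mir873 and Mir876 were both chosen for a steep fall over 9 of the 11 libraries, and the other pairs were not. A high r is thus in part built in, and the comparison is not of like with like.

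The 10 transcripts whose profile over the 11 libraries was most like the mean of the pair were Mir449c (r = 0.97), Mir449a, mmu-mir-6540, Mir675, mmu-mir-6944, Mir483, Mir344d-3, Mir34c, Mir592 and Mir340 (r = 0.92). Likeness was a Pearson r of log2(FPKM + 10), and 23 tested transcripts in all were above 0.9. Mir449c and Mir449a, neighbours on chromosome 13 known from multiciliated cells, had 81 and 31 reads in iPSC, 100 and 39 in ESC, 13 and 5 on day 8, and 218 and 150 in MEF. Mir675, made from the imprinted H19 RNA, had 7 reads in iPSC, 5 in ESC, 1 on day 8 and 267 in MEF, counts near those of the pair. Mir483, in an intron of Igf2 next to H19, had 79 reads in iPSC, 17 in ESC, 8 on day 8 and 1877 in MEF. Mir34c, a target of p53, was far more abundant, with 604658 FPKM in iPSC, 129548 in ESC, 58819 on day 8 and 738053 in MEF. In all 10, as in the pair, both lines were above day 8, but the end points differed in depth, with slopes from -0.49 for Mir34c and Mir340 to -1.14 for Mir483. All 10 were picked by their profile, so their direction is no further evidence.

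**Figure D5:**
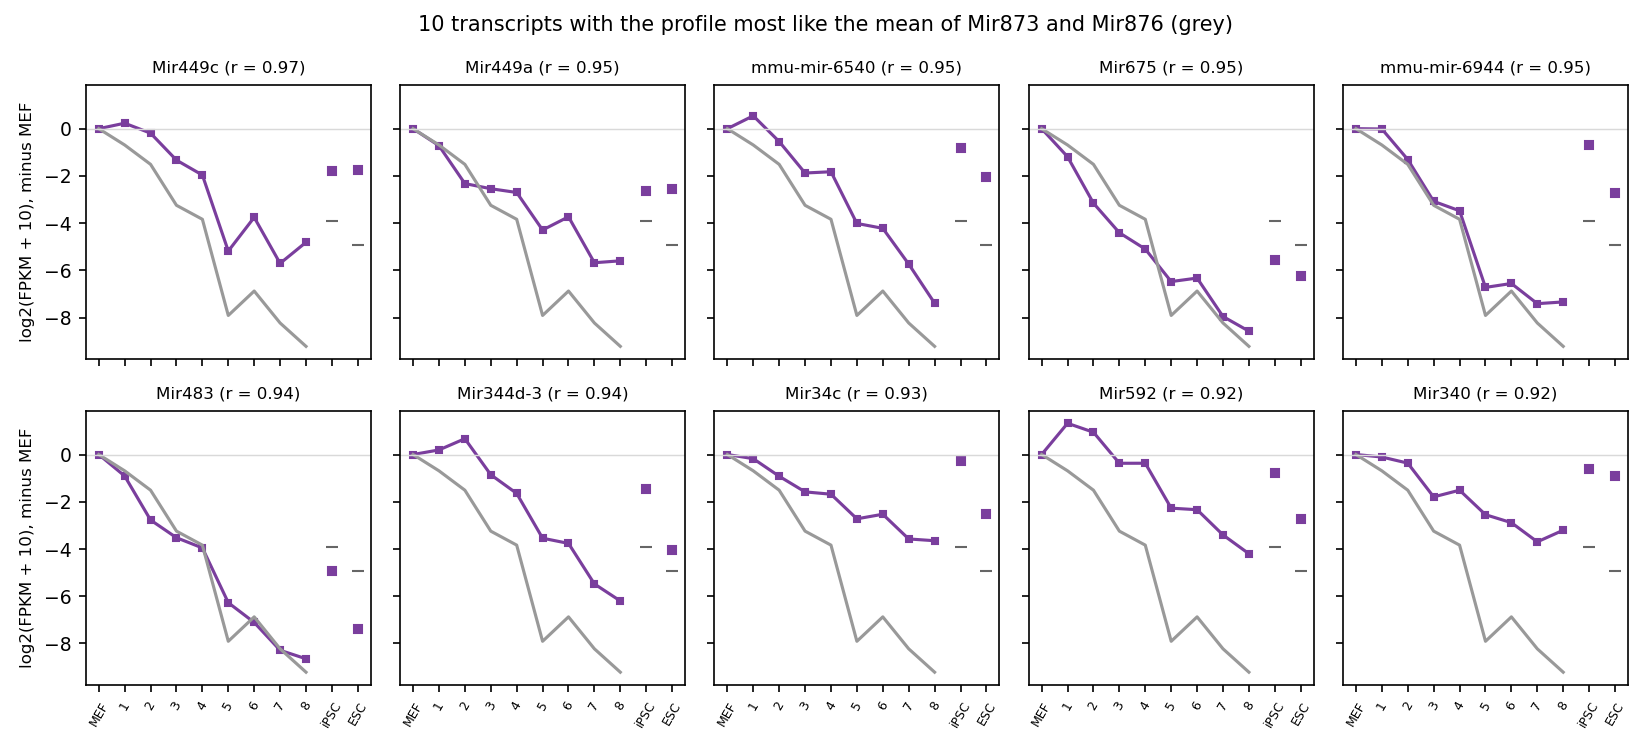
Profiles of the 10 transcripts most like the mean of Mir873 and Mir876, as log2(FPKM + 10) minus the MEF value over MEF, days 1 to 8, iPSC and ESC (purple squares; grey line and dashes, the mean of the pair). The lines stand above day 8 in each panel, and Mir675 and Mir483 fall about as deep as the pair.

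Few of the other small RNAs of chromosome 4 passed the test. Of 69 others tested there, 2 fell and 5 rose, with a median slope of 0.04. Of all 1419 tested transcripts 10.6% fell and 12.5% rose, with a median slope of 0.02. The 2 that fell were the 5S ribosomal RNA copy n-R5s185 (-0.65) and Mir455 (-0.26), and without days 7 and 8 neither passed the test. In that fit the falling transcripts among all 1419 numbered 69, in place of 150. Those that rose included Mir200b, Mir429 and Mir200a, miRNAs of epithelial cells, at 0.70, 0.69 and 0.68 per day.

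Markers of other cell types were read beside the pair, since MEF cultures can hold several. Gene copies with the same mature miRNA, such as Mir133a-1 and Mir133a-2, can share reads, and how these were split is not known here. Of the neural miRNAs, 12 were tested, none fell and 1 rose (Mir219-2, 0.35), with a median slope of 0.01; without days 7 and 8, 3 rose. Their summed level was 149135 FPKM on day 8 and 203860 in MEF, where the neuronal Mir124a-1 was at 1495 and the neural Mir9-2 at 79039. All 5 muscle miRNAs in the table fell, 4 of them in every fit that left out 1 library, with a median slope of -1.08 and a summed level of 331 FPKM on day 8 and 176879 in MEF. In the lines it was 1675 (iPSC) and 720 (ESC), and Mir133b and Mir206 were listed at 0 on day 8 and in ESC. Of 8 blood cell miRNAs 4 fell, Mir511, Mir223, Mir486 and Mir155, and their median slope was -0.43. Summed, the 8 were at 620870 FPKM on day 8 and 4520204 in MEF, most of it Mir146. Mir126, the endothelial marker, had a slope of 0.05. Of 8 fibroblast and mesenchymal miRNAs 6 fell, with a median slope of -0.34, and 3 without days 7 and 8. All 12 pluripotency miRNAs rose, with a median slope of 1.16 (9 without days 7 and 8), and their summed level was 46912324 FPKM on day 8 and 21449 in MEF. Most of both sums was Mir295, which was listed at 0 in iPSC and ESC. Muscle, fibroblast and some blood cell markers thus fell over the same course as the pair. Of all 1419 tested transcripts, 10.6% fell and 12.5% rose. With 12 neural miRNAs tested, none falling and 1 rising is close to these shares and sets them apart from neither. The part of any of these cells in the levels of Mir873 and Mir876 was not tested.

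Per length, the pair was above the median miRNA in MEF, among the lowest on day 6 and below the median in the lines. By FPKM, Mir873 ranked 224th and Mir876 271st of 651 tested miRNAs above 0 in MEF, where the median was 1116 FPKM. On day 2 they ranked 318th and 406th of 755, and on day 6 692nd and 701st of 760. In iPSC they ranked 487th and 557th of 778, and in ESC 536th and 562nd of 750, in both lines below the median of miRNAs above 0 (2084 FPKM in iPSC and 2184 in ESC). Because 1 read is worth more FPKM in a shorter hairpin, such ranks between genes are less safe than the levels of 1 gene across libraries.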

How the data were processed

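Per the labels' protocols, total RNA was used for TruSeq small RNA libraries, cut from a gel by size. The deposited table holds FPKM computed by the authors; mm10, Cufflinks 2.2.1, Bowtie2 2 and CASAVA 1.8.2 are listed, without roles, per the submitters' processing notes. Which annotation and filter were used, and how reads with several matches were handled, is not given in the sources used here. Of 3859 rows, 3712 were found by gene ID in GENCODE vM21, and 1739 were 0 throughout; 0 columns belonged to other samples.

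The worth of 1 read was found from low values by a model of fragment length (Gaussian, mean 200 and SD 80 nt, an assumption). It placed 4716 values from 0.5 to 5.5 reads, and 91.2% of these lay within 0.05 of a whole number. The largest distance of a value of the pair from a whole read, on its own step, was 0.21, at 197 reads. Because the step rests on this model, no count model was fitted across genes; intervals of single folds and shares use the recovered reads and rest on it too.

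Values were tested as log2(FPKM + 10) with limma 3.58.1 in R 4.3.3 (two-sided, 7 residual and 2.53 prior degrees of freedom) at a mean of at least 10 FPKM, which shrinks the changes of genes with low values. A p over the course measures scatter of 9 libraries around a trend. Fits and the depth search were tested on simulated data. Those for the fits had independent scatter below limma's prior SD, and those for the depth search held whole reads only. They did not check the assumed fragment length. Genes named beside the pair are the 10 most alike in profile, rows within 1 Mb, those sharing a seed, and examples from the lists; other rows of the steepest falls were named after their values were seen. Members and lists were chosen with earlier results of these data known. Alternatives covered pseudocount, filter, scaling, libraries left out and neighbour distance.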

Additional observations from a re-analysis of the deposited data

How the results depend on the processing

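Of 153 values recomputed under other settings, 115 stayed within their counting interval or standard error (within 1.5-fold for counts of transcripts and for folds with a library at 0, and within 5 percentage points for the share of neighbour pairs), and 0 changed direction. Some of the 115 could not move: the slopes of the pair do not change with the filter, in miRNAs alone or without day 4. Shares of the pair, and percents of MEF for a library at 0, were likewise fixed, so the tally overstates stability. Log2 differences from day 8, where the pair is at 0, moved with the pseudocount. For pseudocounts of 1 and 100, day 8 minus MEF was -13.42 and -6.79 for Mir873 and -11.65 and -5.05 for Mir876, iPSC minus day 8 was 9.14 and 2.73 for Mir873 and 8.04 and 1.86 for Mir876, and ESC minus day 8 was 7.77 and 1.67 for Mir873 and 7.30 and 1.36 for Mir876. After quantile normalization day 8 minus MEF was -10.83 for Mir873 and -9.63 for Mir876, and iPSC minus day 8 was 5.22 for Mir873. The slope of Mir873 was -1.55 with a pseudocount of 1, -0.93 with 100 and -1.40 without days 7 and 8, and that of Mir876 -1.65 and -0.72 with a pseudocount of 1 and 100. Leaving out 1 library gave slopes of -1.35 to -1.27 for Mir873 and -1.28 to -1.14 for Mir876, between 97 and 170 falling and between 93 and 175 rising transcripts. Falling transcripts numbered 69 without days 7 and 8 and 80 on days 3 to 8 alone; rising ones numbered 66 on days 3 to 8, 111 in miRNAs alone and 312 after scaling to the miRNA sum. The cause of these moves was not tested. That scaling moved the median transcript by 0.88 on day 7 and 0.65 on day 8 (log2), and quantile normalization by 0.84 in MEF. After quantile normalization the log2 difference between iPSC and MEF was -5.61 for Mir873 and -5.44 for Mir876, in place of -4.25 and -3.57. With a pseudocount of 1, r between the neighbours was 0.90, and 12.9% of the fall of Mir873 was complete on day 2, 35.9% on day 4, and 25.0% of that of Mir876 on day 4. The main reads of the pair were already read off each gene's own step. Its shares recomputed from that step could thus only be the same. No paired analysis was possible because each stage has 1 library. Among the limits is depth: at most 2 reads of the pair per library on days 5 to 8 do not order those days.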
